A study of Mus musculus with 74 samples.

Results

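The genes described here are Trem2, Apoe, Gpnmb, Spp1, Fabp5, Lpl, Cd36, Lgals3 and Tyrobp, genes of the Trem2 lipid-associated macrophage program. They were taken by symbol from the deposited table of raw counts, where they are 9 of 49480 gene symbols, and were followed as CPM (counts scaled to a library total of 1000000) across all 20 groups of the series.

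Lipid-associated macrophages are cells of fat tissue, atherosclerotic plaques, injured liver and tumors that take up and break down lipid-rich debris. Trem2 is a surface receptor for lipids and lipoproteins that has no signaling motif of its own and pairs with the adaptor Tyrobp, also called DAP12, whose phosphorylated tail recruits the kinase Syk. Apoe is a lipid carrier that Trem2 can bind, and many of these genes are also raised in microglia of the diseased brain.

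The series holds bulk RNA sequencing (Smart-seq2, which copies whole transcripts from small numbers of cells) of immune cells from subcutaneous MC38 tumors, a colon carcinoma line, and from the spleen of the same kind of animals, C57BL/6J mice. All mice carried tumors, so the spleens are those of tumor-bearing mice, and cells were taken on day 10 of tumor growth. Each library came from 1000 cells that were sorted in 2 rounds from CD45+ cells. The 5 sorts were defined by surface proteins, with CD11b+F4/80+ for macrophages, CD11b+CD11c+MHCII+ for dendritic cells, and T cells taken as regulatory T cells (TCRb+CD4+CD25+), conventional CD4 T cells (TCRb+CD4+CD25-) and CD8 T cells (TCRb+CD8+).

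Each sort was taken from tumor at 12 months of age, tumor at 3 months, spleen at 12 months and spleen at 3 months, which makes 20 groups and 74 libraries. Of the groups 15 held 4 libraries, 4 held 3 and 1 held 2, namely tumor conventional CD4 T cells at 3 months. The groups of 3 were tumor dendritic cells at 12 months, spleen dendritic cells at both ages and conventional CD4 T cells of the spleen at 3 months. Replicate 1 of each dendritic cell group came from males, 4 libraries in all, and the other 70 libraries came from females. No label says whether the libraries of a group came from separate animals, so p-values measure only the spread between these libraries, which may be technical.

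Totals per library ran from 1652812 to 9115858 counts. The sort genes were high where they belonged, but those of the 2 myeloid sorts overlapped. Adgre1, which encodes F4/80, ran from 240.0 to 1103 CPM in macrophages and from 31.8 to 389 CPM in dendritic cells. Itgax, which encodes CD11c, ran from 350.4 to 689.6 CPM in dendritic cells and from 79.1 to 449 CPM in macrophages. Flt3, a dendritic cell marker, ran from 33.3 to 195 CPM in tumor dendritic cells and from 240 to 393 CPM in spleen dendritic cells. Several sets of libraries stood apart. The 10 macrophage markers summed to 11024 to 17692 CPM in tumor macrophages and 2995 to 4704 CPM in spleen macrophages, with no marker at 0. The spleen macrophage libraries carried 4146 to 39845 CPM summed over 9 neutrophil markers, against 28.4 to 838 CPM in tumor macrophages, although they were sorted as macrophages. Fibroblast markers summed to 862 CPM in replicate 4 of tumor macrophages at 12 months and to 275 and 300.4 CPM in replicates 2 and 4 at 3 months, while the remaining 5 had sums between 15.9 and 43.6 CPM. Replicate 2 of tumor dendritic cells carried the macrophage markers at a summed 13151 CPM (12 months) and 12691 CPM (3 months), while the sum in the remaining 5 libraries lay between 2919 and 5828 CPM. Replicates 3 and 4 of spleen dendritic cells at 3 months have 3 months in their titles and 12 months in their age tag, and the titles were followed. Ribosomal protein genes took 8.66% and 11.7% of the counts in replicates 1 and 4 of spleen conventional CD4 T cells at 3 months, and 3.83% to 4.54% in the other 5 spleen libraries of that sort.

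The 9 genes were highest in the myeloid sorts. For Trem2, Apoe, Lpl, Cd36, Lgals3 and Tyrobp every macrophage library was above every T cell library. Spp1, Fabp5 and Gpnmb overlapped between macrophages of the spleen and T cells. Per kilobase of transcript, which allows genes to be compared, tumor macrophages held Apoe at 14468 CPM, Tyrobp at 1575 CPM, Lgals3 at 1057 CPM, Spp1 at 657 CPM and Trem2 at 305 CPM. Fabp5 had 54.8 CPM per kilobase there, Cd36 27.9 CPM, Gpnmb 18.7 CPM and Lpl 10.5 CPM. In spleen macrophages the same scale put Tyrobp at 2397 CPM, Apoe at 2387 CPM, Trem2 at 31.9 CPM, Spp1 at 3.09 CPM and Gpnmb at 0.479 CPM. The adaptor Tyrobp was thus above its receptor Trem2 per kilobase in both tissues.

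**Figure D1:**
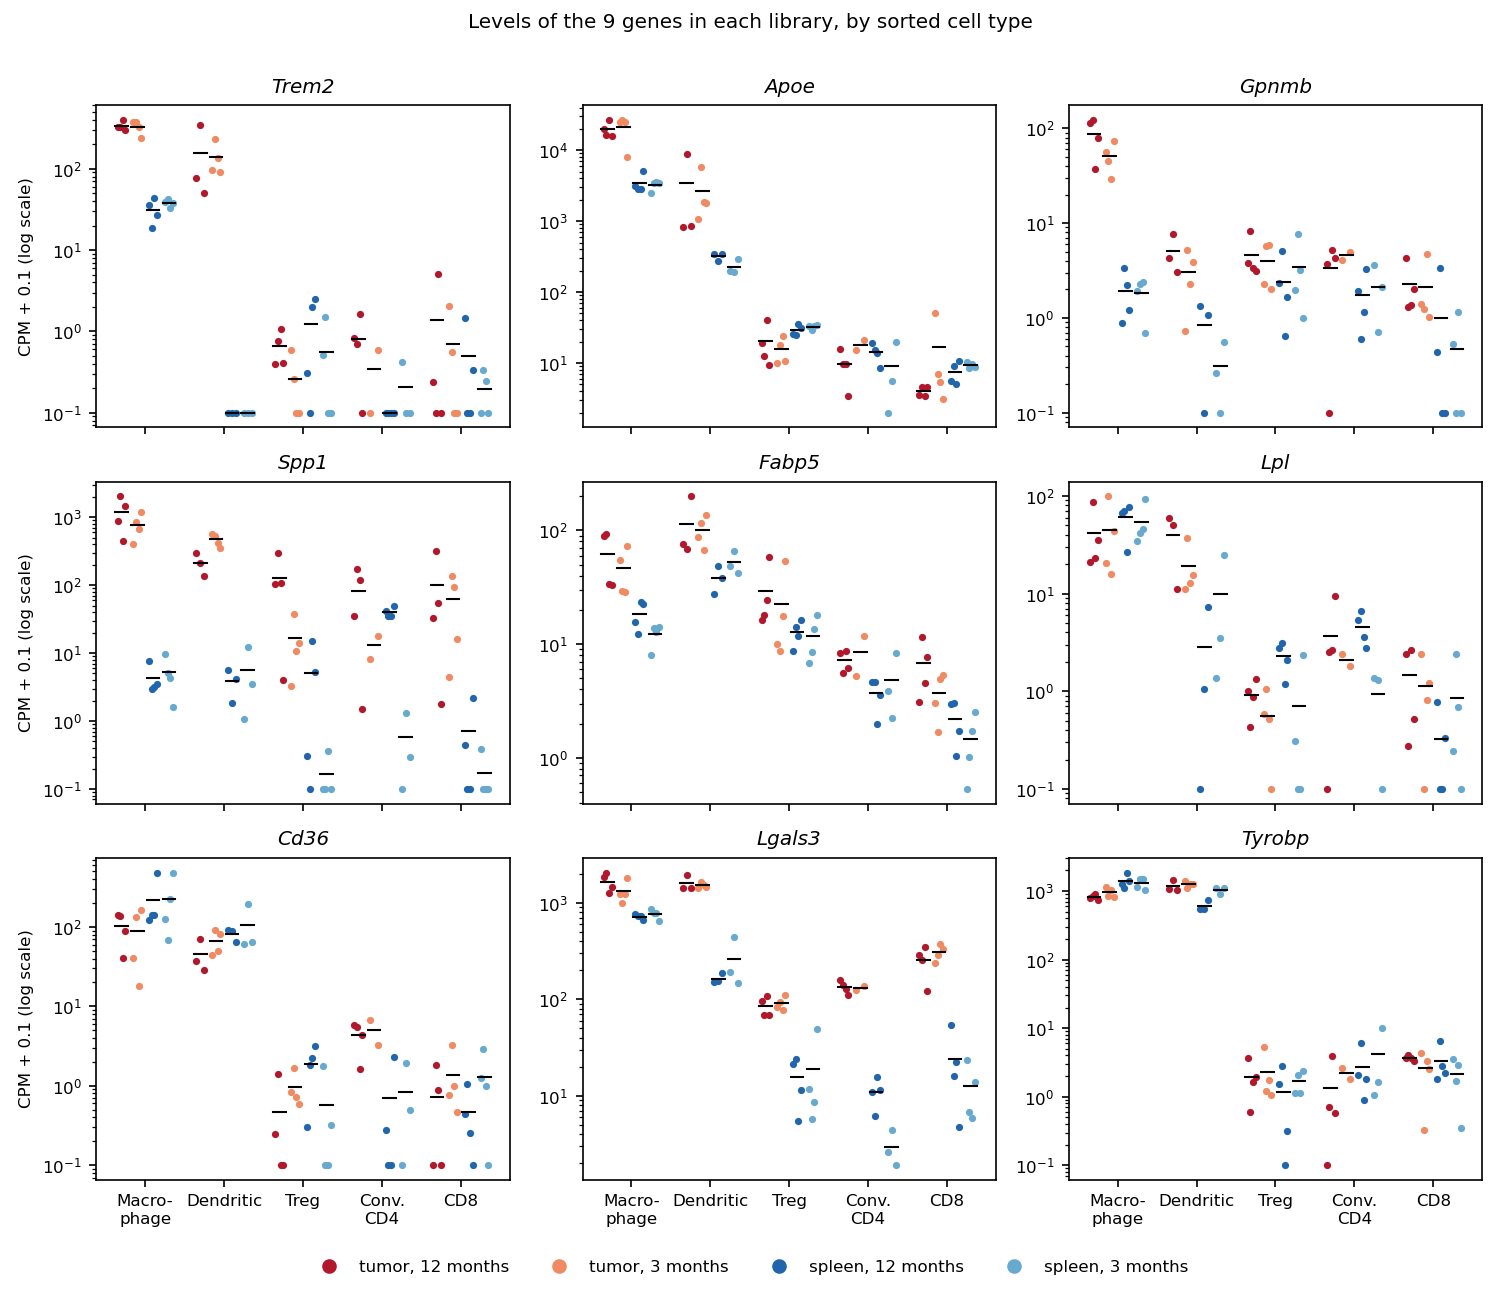
CPM plus 0.1 (log scale) of each gene in each of the 74 libraries, by sort, with tumor in red (12 months) and orange (3 months) and spleen in dark blue (12 months) and light blue (3 months). Points are libraries and lines are group means. Trem2 reached 397 CPM in tumor macrophages and 0 counts in all 6 spleen dendritic cell libraries, while Lgals3 was above its spleen level in the tumor libraries of all 5 sorts.

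The first comparison asks how macrophages of the tumor differ from those of the spleen, as the mean over both ages. Of the 9 genes 6 were higher in tumor macrophages, 1 was lower and 2 did not pass the test (edgeR quasi-likelihood test, adjusted p under 0.05, n = 8 libraries each). Of all 12876 genes tested 51.7% passed, so passing was common. The median log2 fold change was 2.07 over the 9 genes and -0.06 over all genes tested. In bulk samples, more cells of a type and more RNA per cell cannot be told apart. Macrophage markers moved the same way in these libraries, and their part in the result was not tested: all 10 macrophage markers were higher in tumor, with log2 fold changes from 0.54 to 5.23 and a median of 3.30. B cell markers moved the other way, with sums of 6.76 to 33.3 CPM in tumor macrophages and 846 to 2966 CPM in spleen macrophages, and erythroid markers did too (0 to 2.13 CPM, against 2.55 to 213 CPM in spleen). Markers of fibroblasts (15.9 to 862 CPM in tumor, 0.96 to 11.8 CPM in spleen) and of epithelial and tumor cells (18.6 to 198 CPM in tumor, 0.589 to 17.4 CPM in spleen) were higher in tumor. The part of these markers was not tested either.

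Trem2 (chr17:48346401-48354147, plus strand, GRCm38) separated the tissues in every library. It had 326, 330.0, 397 and 295 CPM in tumor macrophages at 12 months and 375, 373, 322 and 236 CPM in tumor macrophages at 3 months. In spleen macrophages it had 35.6, 18.6, 44.1 and 27.2 CPM at 12 months and 38.9, 42, 33.2 and 37.8 CPM at 3 months. The lowest tumor library was above the highest spleen library, and the 2 ages overlapped in both tissues. Trem2 was higher in tumor, by a log2 fold change of 3.48 with an SE of 0.16 (adjusted p = 2.82e-12). Leaving out the 3 tumor libraries with the most fibroblast transcripts gave 3.61, and the neutrophil marker level as a covariate gave 2.92.

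Tyrobp (chr7:30413760-30417585, plus strand) went the other way. It averaged 888 ± 132 CPM in tumor macrophages and 1352 ± 270.2 CPM in spleen macrophages (SD, n = 8 each), with lowest, median and highest values of 738, 843 and 1131 CPM in tumor and 1039, 1329 and 1863 CPM in spleen. The tissues overlapped in single libraries. Tyrobp fell by 0.40 on the log2 scale (SE 0.13, adjusted p = 0.0145). Beside the neutrophil marker level as a covariate the log2 fold change was -0.42 with an adjusted p of 0.651, and without the 3 libraries rich in fibroblast transcripts it was -0.24 with an adjusted p of 0.176. Tyrobp is used by many receptors of myeloid cells besides Trem2, neutrophils included. Hcst, the neighboring adaptor gene on the opposite strand, could share reads with it, since the strand setting of the counting is not given in the sources used here.

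Apoe (chr7:19696109-19699188, minus strand) was the most abundant of the genes. It ranked 1 among all genes by mean level in tumor macrophages, where it took 2.04% of all counts, and 9 in spleen macrophages, with 0.336% of the counts. Tumor macrophages had 19819, 16497, 26711 and 15891 CPM at 12 months and 24856, 26515, 24639 and 8038 CPM at 3 months. Spleen macrophages had 3097, 2857, 2799.8 and 5172 CPM at 12 months and 2518, 3492, 3538 and 3409.6 CPM at 3 months. All 8 tumor libraries were above all 8 spleen libraries, and replicate 4 of tumor macrophages at 3 months was far below the other 7 tumor libraries. The log2 fold change of Apoe was 2.81 with an SE of 0.22 (adjusted p = 7.53e-09). With the neutrophil marker level as a covariate it was 1.40, with an adjusted p of 0.137.

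Spp1 (chr5:104435118-104441050, plus strand), which encodes osteopontin, a secreted ligand of integrins and CD44, had the largest log2 fold change of the 9 genes in macrophages. Tumor macrophages had 872, 2027, 447 and 1474 CPM at 12 months and 409, 853, 666 and 1170.5 CPM at 3 months. Spleen macrophages had 7.66, 2.88, 3.04 and 3.37 CPM at 12 months and 9.72, 4.95, 4.13 and 1.5 CPM at 3 months. No spleen library reached 10 CPM, and the tumor libraries spread widely, from 409 to 2027 CPM. In the test Spp1 had a log2 fold change of 7.94 with an SE of 0.46 (adjusted p = 1.74e-09).

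Lgals3 (chr14:47367751-47386160, plus strand), which encodes the sugar-binding protein galectin-3, was high in both tissues. It averaged 1499.7 ± 384 CPM in tumor macrophages and 749 ± 70.3 CPM in spleen macrophages (SD, n = 8 each), ranging over 997 to 2076 CPM in tumor, against 655 to 867 CPM in spleen. The ranges did not overlap. The log2 fold change was 1.21 with an SE of 0.14 (adjusted p = 5.27e-07), and 2.40 with the neutrophil marker level as a covariate.

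Gpnmb (chr6:49036546-49070929, plus strand), a membrane glycoprotein of phagocytes and pigment cells, was nearly absent from spleen macrophages. Tumor macrophages had 113, 122, 37.3 and 79.1 CPM at 12 months and 56.4, 44.8, 28.8 and 73 CPM at 3 months. Spleen macrophages had 0.786, 3.27, 2.13 and 1.12 CPM at 12 months and 1.82, 2.15, 2.29 and 0.6 CPM at 3 months. Its log2 fold change was 5.47 with an SE of 0.36 (adjusted p = 5.13e-10), the next largest after Spp1, and the log2 fold change was 8.48 with the neutrophil marker level as a covariate. Gpnmb did not pass the low-count filter in spleen macrophages alone, so it entered this comparison through the tumor libraries, and the count and median over the 9 genes are a description. Gpnmb holds the single match found in a search of the members' promoters for CACGTG, the E-box core, and TGAGTCA, the AP-1 site, on both strands. The RefSeq table of promoters, which run from 250 bases before to 50 bases after a start site, held 9 promoters of 6 of the 9 genes (Trem2, Apoe, Gpnmb, Spp1, Cd36 and Lgals3). The Gpnmb promoter is shown because this gene changed strongly and holds that match, with the match in capitals, read as TGACTCA on the strand of the gene, and it lies at chr6:49036268-49036567 (GRCm38.p6, plus strand).
Gpnmb promoter: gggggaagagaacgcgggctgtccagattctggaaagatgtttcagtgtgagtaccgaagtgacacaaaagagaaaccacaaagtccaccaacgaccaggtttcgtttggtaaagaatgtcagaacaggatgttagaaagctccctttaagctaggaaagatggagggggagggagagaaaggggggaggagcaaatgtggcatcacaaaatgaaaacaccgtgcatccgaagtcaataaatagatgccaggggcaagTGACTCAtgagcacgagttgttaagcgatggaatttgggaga
The match is a description of the letters and not of a bound site. Of 32851 mouse promoters of this length 5.20% hold TGAGTCA and 7.15% hold CACGTG.

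Fabp5 (chr3:10012548-10016607, plus strand), an intracellular carrier of fatty acids, was also higher in tumor macrophages. It averaged 54.1 ± 27.2 CPM in tumor macrophages and 15.2 ± 5.25 CPM in spleen macrophages (SD, n = 8 each), with ranges of 28.4 to 93.4 CPM in tumor libraries and 7.9 to 23.4 CPM in spleen, which did not overlap. Fabp5 rose by 2.07 with an SE of 0.29 (adjusted p = 8.49e-06) on the log2 scale, and by 4.15 with the neutrophil marker level as a covariate. Fabp5 has a close pseudogene copy, Fabp5l2, that could share its reads, so its count is uncertain.

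The 2 genes of lipid uptake did not pass. Lpl (chr8:68880491-68907448, plus strand), the lipase that frees fatty acids from lipoproteins, averaged 43.1 ± 32.2 CPM in tumor macrophages and 57.1 ± 23.3 CPM in spleen macrophages (SD, n = 8 each). Its log2 fold change was -0.20 with an SE of 0.40 (adjusted p = 0.711), and the tissues overlapped. Cd36 (chr5:17781690-17888801, minus strand), a scavenger receptor for oxidized lipoproteins and fatty acids, had 140.1, 138, 40.8 and 87.9 CPM in tumor macrophages at 12 months and 41.1, 132, 18.2 and 161 CPM at 3 months. Spleen macrophages had 121, 143, 139 and 479.7 CPM of Cd36 at 12 months and 127, 67.9, 224 and 484 CPM at 3 months. Replicate 4 was the highest spleen library at both ages, and tumor and spleen overlapped. The log2 fold change of Cd36 was -1.01 with an SE of 0.52 (adjusted p = 0.118). Without the 3 tumor libraries rich in fibroblast transcripts Cd36 was lower in tumor, with a log2 fold change of -1.70 and an adjusted p of 0.0481. That was the 1 of 22 alternatives in which Cd36 passed. The libraries left out include the 2 highest in Cd36 at 3 months (132 and 161 CPM). Leaving them out thus deepens the difference by itself, and this fit is no check of the result.

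The neutrophil markers differed between the tissues in the same direction in every library, so their part in the tissue difference and that of the tissue itself cannot be told apart. With their summed level in the model Trem2, Gpnmb, Spp1, Fabp5 and Lgals3 still passed as higher in tumor. The calls on Apoe and Tyrobp were lost. Since these sums do not overlap between the tissues, that fit reaches beyond the data and is no check of the results. The monocyte markers summed to 1989 to 4423 CPM in tumor macrophages and 2818 to 5563 CPM in spleen macrophages. Markers of red pulp macrophages, which clear red cells in the spleen, summed to 462 to 1292 CPM in tumor macrophages and 749 to 1736 CPM in spleen macrophages. The part of these markers in the results was not tested.

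**Figure D2:**
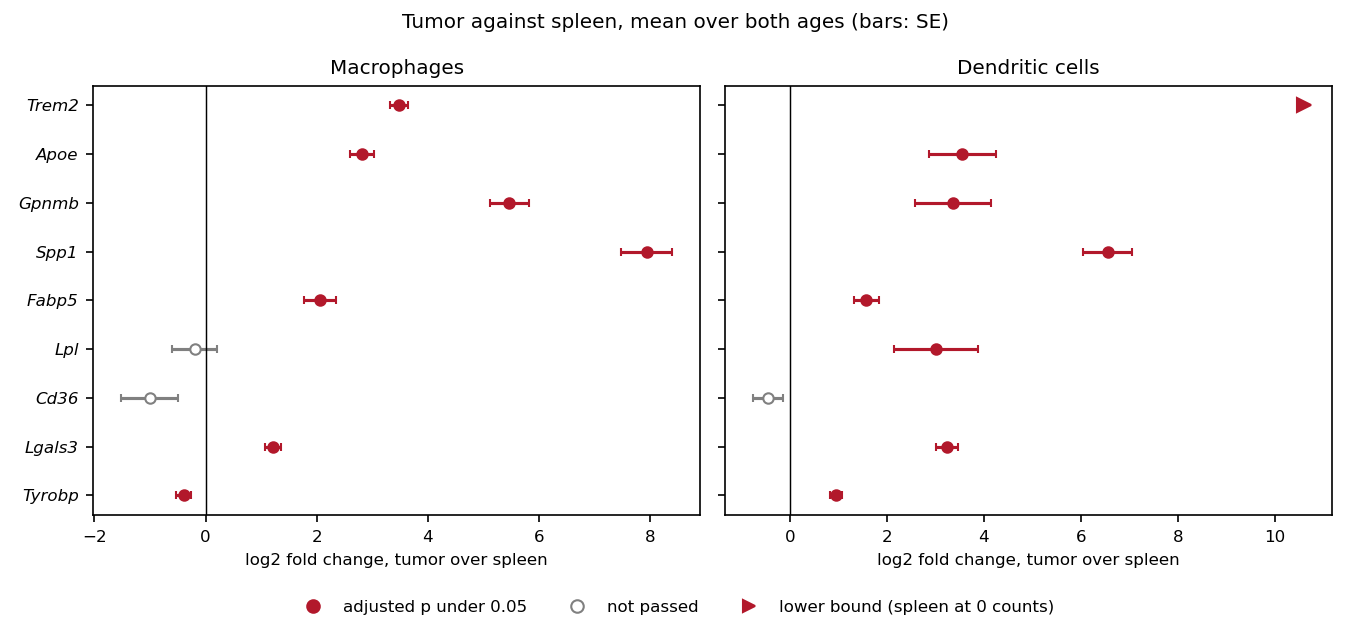
Log2 fold change, tumor over spleen, of each gene in macrophages (left) and dendritic cells (right), with bars of 1 SE; filled points passed an adjusted p of 0.05 and open points did not. The triangle is a lower bound for Trem2 in dendritic cells, where all 6 spleen libraries had 0 counts. Spp1 lies at 7.94 in macrophages and 6.55 in dendritic cells, and Cd36 lies below 0 in both without passing.

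In dendritic cells 8 of the 9 genes were higher in tumor than in spleen and 1, Cd36, did not pass (n = 7 tumor and 6 spleen libraries). Of 13981 genes tested 47.1% passed, and the median log2 fold change was 3.24 over the 9 genes and -0.04 over all genes. Macrophage markers moved with the genes here too. Of the 10 macrophage markers 9 were higher in tumor dendritic cells, with a median log2 fold change of 7.07 and sums of 2919 to 13151 CPM in tumor libraries, against 556 to 745 CPM in spleen libraries. Tumor libraries also held more of the monocyte markers (a sum of 1206 to 2304 CPM, against 337 to 746 CPM in spleen) and of the epithelial and tumor cell markers (168 to 465 CPM, against 12.9 to 38.6 CPM in spleen). They held less of the B cell markers (11.3 to 35.3 CPM, against 501 to 3139 CPM in spleen), the T cell markers (1.56 to 38.3 CPM, against 137 to 347 CPM in spleen) and the neutrophil markers (3.59 to 24.1 CPM, against 28.7 to 347 CPM in spleen). None of these sums overlapped between the tissues. The part of these markers in the calls was not tested. Trem2 and Gpnmb did not pass the low-count filter in spleen dendritic cells alone and entered this comparison through the tumor libraries. Their calls, and their place in the count of 8, are thus a description.

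Trem2 was counted in every tumor dendritic cell library and in no spleen dendritic cell library. Tumor dendritic cells had 77.7, 347 and 49.7 CPM at 12 months (replicates 1 to 3) and 96.1, 232, 135 and 92 CPM at 3 months (replicates 1 to 4), and all 6 spleen libraries had 0 counts. Replicate 2 was the highest at both ages. Against 3 counts over the 6 spleen libraries, a floor of 0.0942 CPM, the tumor mean of 147 ± 106 CPM (SD, n = 7) was at least 1562-fold higher. The edgeR fit gave an adjusted p of 6.76e-04, which does not measure this bound, and the call is a description. Without replicate 2 the mean of the other 5 tumor libraries was 90.2 ± 31.1 CPM (SD), at least 957-fold above that floor. These floors take in only the error of counting, because PCR copies of 1 molecule could not be set apart.

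Apoe had 816, 8834 and 865 CPM in tumor dendritic cells at 12 months and 1089.8, 5783, 1840.2 and 1818 CPM at 3 months, in replicate order. Spleen dendritic cells had 347, 276 and 344 CPM of Apoe at 12 months and 196, 192 and 296 CPM at 3 months. Replicate 2 was several-fold above the other tumor libraries, and each of these was above every spleen library. Apoe rose by a log2 fold change of 3.56 with an SE of 0.69 (adjusted p = 0.00247), and 2.41 without replicate 2 of both ages. Without the 2 spleen libraries of conflicting labels it was 3.22, with an adjusted p of 0.0885.

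Spp1 had 293, 209 and 135 CPM in tumor dendritic cells at 12 months and 573, 530.1, 419 and 351 CPM at 3 months, against 5.55, 1.77 and 4.1 CPM in spleen at 12 months and 0.96, 12 and 3.4 CPM in spleen at 3 months. Here replicate 2 lay within the range of the other libraries. Spp1 was higher in tumor (log2 fold change 6.55, SE 0.51, adjusted p = 3.79e-06). Lgals3 averaged 1565 ± 187 CPM in tumor dendritic cells and 213 ± 115 CPM in spleen dendritic cells (SD, log2 fold change 3.24, SE 0.23, adjusted p = 1.80e-07). Tyrobp was also higher in tumor, with 1230.5 ± 164 CPM in tumor dendritic cells and 828 ± 257 CPM in spleen dendritic cells (SD, log2 fold change 0.95, SE 0.12, adjusted p = 1.83e-05). Whether the tissue effect on Tyrobp differs between the 2 sorts was not tested.

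Among the fatty acid genes, Fabp5 averaged 107 ± 48 CPM in tumor dendritic cells and 45 ± 12.8 CPM in spleen dendritic cells (SD, log2 fold change 1.58, SE 0.26, adjusted p = 3.22e-04). Lpl ranged over 11.1 to 59.1 CPM in tumor dendritic cells and 0 to 24.6 CPM in spleen dendritic cells, with overlap, and its log2 fold change was 3.01 with an SE of 0.87 (adjusted p = 0.0171). The call on Lpl was lost without replicate 2 of the tumor libraries (adjusted p = 0.0811). It also stood at an adjusted p of 0.0649 without the low-count filter and of 0.111 with ages from the age tag, and it did not pass without the 2 spleen libraries of conflicting labels. Gpnmb stayed low, with 0.635 to 7.66 CPM in tumor dendritic cells and 0 to 1.23 CPM in spleen dendritic cells (log2 fold change 3.36, SE 0.78, adjusted p = 0.00271). Cd36 averaged 57.9 ± 23.9 CPM in tumor dendritic cells and 93.8 ± 50.1 CPM in spleen dendritic cells (SD, log2 fold change -0.45, SE 0.31, adjusted p = 0.272).

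Set against tumor dendritic cells, tumor macrophages had 3 of the 9 genes higher and 2 lower, and 4 did not pass. Of 12861 genes tested 49.3% passed. Markers of red pulp macrophages summed to 462 to 1292 CPM in tumor macrophages and 54.2 to 207 CPM in tumor dendritic cells, and neutrophil markers to 28.4 to 838 CPM in tumor macrophages and 3.59 to 24.1 CPM in tumor dendritic cells, and their part was not tested. Apoe averaged 20371 ± 6587 CPM in tumor macrophages and 3007 ± 3096 CPM in tumor dendritic cells (SD, log2 fold change 2.32, SE 0.54, adjusted p = 0.00338). Gpnmb averaged 69.3 ± 34.3 CPM in tumor macrophages and 3.79 ± 2.24 CPM in tumor dendritic cells (log2 fold change 3.75, SE 0.43, adjusted p = 7.10e-06). Gpnmb had the largest of the 9 fold changes between these sorts, with ranges of 28.8 to 122 CPM in macrophages and 0.635 to 7.66 CPM in dendritic cells. Spp1 was higher in macrophages (log2 fold change 1.73, SE 0.35, adjusted p = 0.00105).

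Fabp5 and Tyrobp were lower in tumor macrophages than in tumor dendritic cells, Fabp5 with a log2 fold change of -1.20 with an SE of 0.37 (adjusted p = 0.017) and Tyrobp with one of -0.54 with an SE of 0.14 (adjusted p = 0.00385). The call on Fabp5 was lost without replicate 3 of tumor dendritic cells at 12 months (log2 fold change -0.75, adjusted p = 0.139). Lgals3 did not pass between these sorts (log2 fold change -0.19, SE 0.17, adjusted p = 0.377). Nor did Trem2 with all libraries (log2 fold change 0.86, SE 0.37, adjusted p = 0.0664). Without replicate 2 of tumor dendritic cells Trem2 was higher in macrophages by 2.01, with an adjusted p of 1.84e-06, and leaving out replicate 2 of 12 months alone gave 1.68. Replicate 2 was left out for its macrophage markers and had the highest Trem2 of the tumor dendritic cell libraries at both ages. Leaving it out thus raises the difference by itself, and these fits are no check of the result.

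Expressed as a percent of the mean tumor macrophage level, the macrophage markers of tumor dendritic cells stood at 89.9% and 86.8% in replicate 2 (12 and 3 months) and at 20% to 39.9% in the others. Trem2 stood at 104% and 70% in replicate 2 and at 15% to 40.8% in the others, so it lay near the markers in each library. Apoe stood at 43.4% and 28.4% in replicate 2 and at 4% to 9.03% in the others, below the markers throughout. Gpnmb was at most 11% in any tumor dendritic cell library, while Lgals3, Tyrobp and Fabp5 were at 95.2% or more in all of them. The part of macrophage transcripts in the tumor dendritic cell levels was not tested.

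**Figure D3:**
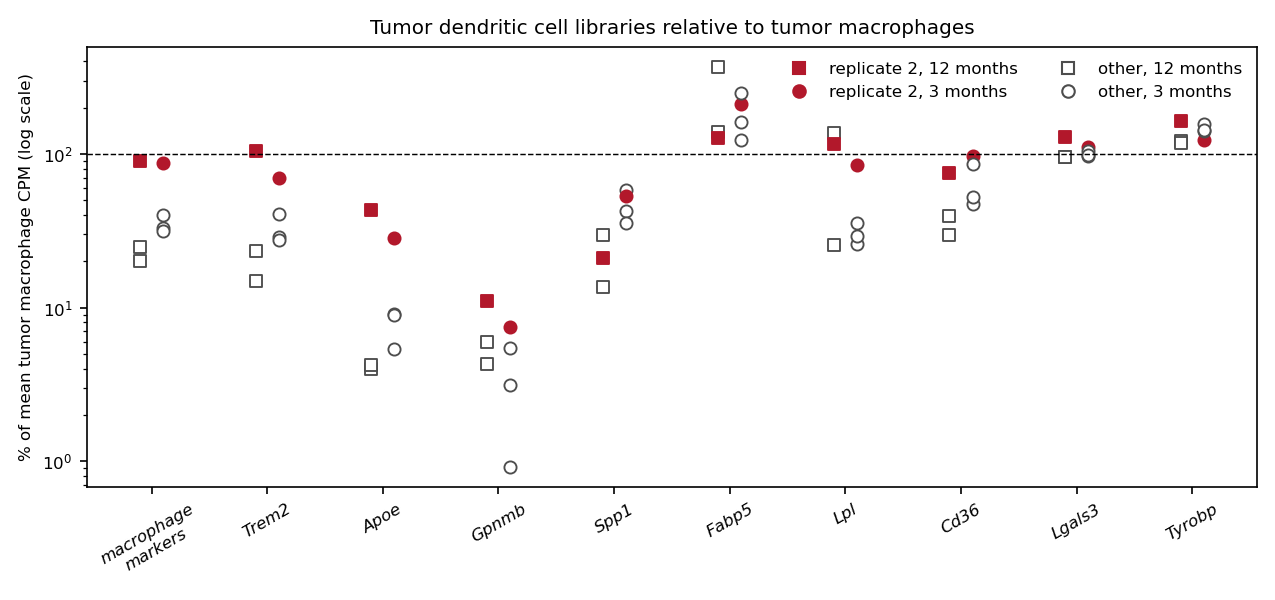
Level of the summed macrophage markers and of each gene in the 7 tumor dendritic cell libraries, as a percent of the mean of the 8 tumor macrophage libraries (log scale, dashed line at 100%). Filled symbols are replicate 2 and open symbols the other libraries, with squares for 12 months and circles for 3 months. Trem2 follows the macrophage markers from library to library, Gpnmb and Apoe lie below them, and Fabp5, Lgals3 and Tyrobp lie near or above 100% in all 7 libraries.

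In the spleen, 5 of the 9 genes were higher and 1 was lower in macrophages than in dendritic cells, and 3 did not pass (52.4% of 14409 genes passed). Trem2 averaged 34.7 ± 8.33 CPM in spleen macrophages (SD, n = 8) and had 0 counts in spleen dendritic cells, at least 368-fold higher against the same floor. The edgeR fit gave an adjusted p of 2.30e-09, which does not measure this bound. Trem2 did not pass the low-count filter in spleen dendritic cells alone and entered this comparison through the macrophages, where it is high. Its place in the count of genes that passed is thus a description. Apoe was higher in macrophages by 3.67 with an SE of 0.20 (adjusted p = 8.28e-11) on the log2 scale, Lgals3 by 1.80 with an SE of 0.22 (adjusted p = 4.67e-06), Lpl by 2.98 with an SE of 0.59 (adjusted p = 9.21e-04) and Tyrobp by 0.80 with an SE of 0.15 (adjusted p = 2.74e-04). Fabp5 was lower in macrophages (log2 fold change -1.63, SE 0.23, adjusted p = 9.43e-06), the direction it also had in tumor. Neutrophil markers summed to 4146 to 39845 CPM in these spleen macrophages and 28.7 to 347 CPM in these dendritic cells, monocyte markers to 2818 to 5563 CPM in macrophages and 337 to 746 CPM in dendritic cells, and T cell markers to 27.7 to 93.8 CPM in macrophages and 137 to 347 CPM in dendritic cells, and their part in the calls, Tyrobp included, was not tested. With ages from the age tag the log2 fold change of Lpl turned to -0.18, and the calls on Trem2 and Tyrobp were lost. Without the 2 dendritic cell libraries of conflicting labels the calls on Trem2, Lpl and Tyrobp were lost. Both settings leave 1 dendritic cell library at 3 months, and Trem2 still had 0 counts in each dendritic cell library used.

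The study also asks what age does to these cells. In macrophages none of the 9 genes passed between 12 and 3 months, in tumor (0% of 11007 genes passed), in spleen (0% of 12131) or in the age by tissue interaction (0% of 12876), by edgeR. At an unadjusted p under 0.05 there were 663, 736 and 619 genes in these 3 comparisons. The Wald test of DESeq2 called 3, 12 and 1 of all genes and none of the 9. In tumor macrophages Gpnmb averaged 87.9 ± 38.5 CPM at 12 months and 50.8 ± 18.6 CPM at 3 months (SD, n = 4 each, log2 fold change 0.74, SE 0.40, adjusted p = 0.817). Spp1 averaged 1205 ± 691 CPM at 12 months and 775 ± 321 CPM at 3 months (log2 fold change 0.60, SE 0.47, adjusted p = 0.843). Of the 9 genes Trem2 was the closest to 0 in tumor macrophages (log2 fold change -0.01, SE 0.17, adjusted p = 0.994), and in spleen macrophages it had -0.22 with an SE of 0.27 (adjusted p = 0.975). Apoe had -0.14 ± 0.33 in tumor and 0.15 ± 0.19 in spleen. Gpnmb was removed by the low-count filter in spleen macrophages, and the other 8 genes were tested there.

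In tumor dendritic cells none of the 9 genes passed for age (0% of 12090 genes by edgeR, with 158 genes at an unadjusted p under 0.05 and 2 genes called by DESeq2). Spp1 was the one member there whose ages did not overlap, with 135 to 293 CPM at 12 months and 351 to 573 CPM at 3 months. Its log2 fold change was -1.24 ± 0.22 (SE) with an adjusted p of 1 in edgeR. The Wald test of DESeq2 gave -1.24 with an adjusted p of 0.00355, and edgeR without the low-count filter gave 9.35e-08, so the call depended on the test and on the filter. In spleen dendritic cells 0.593% of 12650 genes passed, and among the members Tyrobp did. It had 541, 554 and 741 CPM at 12 months and 1093, 917 and 1122 CPM at 3 months, without overlap (log2 fold change -0.76, SE 0.14, adjusted p = 0.0256).

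B cell markers moved with the ages of spleen dendritic cells, with a sum of 2046 to 3139 CPM at 12 months, against 501 to 1653 CPM at 3 months, and plasma cell markers 619 to 723 CPM at 12 months, against 328 to 591 CPM at 3 months. Markers of T cells (137 to 177 CPM at 12 months, 218 to 347 CPM at 3 months), monocytes (337 to 515 CPM at 12 months, 532 to 746 CPM at 3 months) and red pulp macrophages (49.4 to 51 CPM at 12 months, 70.9 to 139.8 CPM at 3 months) were lower at 12 months, as Tyrobp was. None of these sums overlapped between the ages, and their part in the Tyrobp result was not tested. Without the 2 libraries of conflicting labels Tyrobp had a log2 fold change of -0.98 (adjusted p = 0.0142), and with ages from the age tag it had -0.96 (adjusted p = 0.775). Both leave 1 library at 3 months. Leaving out 1 library ended the call in 4 of 6 cases, namely replicate 1, 3 or 4 of 12 months (adjusted p = 0.294, 0.222 and 0.0623) and replicate 1 of 3 months (0.282). The age by tissue interaction in dendritic cells called 0% of 13981 genes and none of the members, with 778 genes at an unadjusted p under 0.05 and 3 genes called by DESeq2, none of them a member.

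Most of the 9 genes were near 0 in T cells. Trem2 was at most 4.95 CPM, Tyrobp at most 9.78 CPM, Cd36 at most 6.71 CPM, Lpl at most 9.39 CPM and Gpnmb at most 8.08 CPM in all 45 T cell libraries. Lgals3, Fabp5, Spp1 and Cd36 each passed in at least 1 tumor T cell sort. In regulatory T cells 3 of the 6 members tested were higher in tumor (53.5% of 13345 genes passed), in conventional CD4 T cells 2 of 8 (27.2% of 14661 genes passed) and in CD8 T cells 3 of 7 (42.1% of 13285 genes passed). No member was lower. Spp1 in regulatory and CD8 T cells, Fabp5 in CD8 T cells and Cd36 in conventional CD4 T cells did not pass the low-count filter in the spleen libraries alone and entered these comparisons through the tumor libraries. Their calls, and their place in these counts, are thus a description.

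Lgals3 was higher in all 3 tumor T cell sorts. Regulatory T cells from tumor had 68.4 to 111 CPM and those from spleen 5.42 to 49.1 CPM (log2 fold change 2.60, SE 0.37, adjusted p = 2.18e-05). Conventional CD4 T cells from tumor had 111 to 158 CPM and those from spleen 1.8 to 15.5 CPM (log2 fold change 4.61, SE 0.21, adjusted p = 4.44e-15). CD8 T cells from tumor had 122 to 374 CPM and those from spleen 4.66 to 54 CPM (log2 fold change 4.07, SE 0.44, adjusted p = 7.24e-06). No tumor library overlapped a spleen library in any of the 3 sorts, and CD8 T cells had the highest tumor levels of the T cell sorts. Relative to tumor macrophages, Lgals3 of tumor CD8 T cells stood at 8.13% to 24.9% while the macrophage markers of these libraries stood at 0.0984% to 0.328%.

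Fabp5 was higher in tumor regulatory T cells, with 25.7 ± 19 CPM in tumor and 12.2 ± 4.03 CPM in spleen (SD, n = 8 each, log2 fold change 1.29, SE 0.37, adjusted p = 0.00716). In CD8 T cells Fabp5 averaged 5.15 ± 3.15 CPM in tumor and 1.72 ± 0.942 CPM in spleen (SD, log2 fold change 1.65, SE 0.44, adjusted p = 0.00422). In conventional CD4 T cells Fabp5 did not pass (log2 fold change 0.93, SE 0.45, adjusted p = 0.129). Cd36 passed in conventional CD4 T cells, at 4.48 ± 1.9 CPM in tumor and 0.659 ± 0.945 CPM in spleen (SD, log2 fold change 2.75, SE 0.86, adjusted p = 0.0177). That call was lost without replicate 1 of tumor cells at 3 months (adjusted p = 0.0942) and without the 2 spleen libraries rich in ribosomal transcripts (adjusted p = 0.166).

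Spp1 reached its highest T cell levels in tumors of mice aged 12 months, but not in every library. At 12 months tumor regulatory T cells had 103, 294, 106 and 3.97 CPM in replicates 1 to 4, tumor conventional CD4 T cells had 35.4, 171, 117 and 1.41 CPM and tumor CD8 T cells had 32.9, 314, 54.9 and 1.7 CPM. Replicate 2 was the highest and replicate 4 the lowest in all 3 sorts. At 3 months tumor regulatory T cells had 3.17, 37.8, 10.6 and 14 CPM, tumor CD8 T cells had 4.27, 135, 92.1 and 15.8 CPM, and the 2 conventional CD4 libraries (replicates 1 and 3) had 8.06 and 17.6 CPM. Replicate 1 was the lowest in all 3 sorts at 3 months.

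Spleen levels of Spp1 were near 0 in CD8 T cells, with 0 to 2.1 CPM and 13 counts over 8 libraries, and 0 to 14.9 CPM in regulatory T cells. The log2 fold change of tumor over spleen was 8.33 ± 1.40 in CD8 T cells (SE, adjusted p = 3.46e-04) and 6.41 ± 1.22 in regulatory T cells (SE, adjusted p = 6.17e-04). Spleen groups at 3 months held 2 counts of Spp1 in CD8 T cells and 1 in regulatory T cells. The size of these fold changes thus depends on the fit, and the calls are a description. In conventional CD4 T cells the log2 fold change was 2.90 ± 0.96 (SE), and its adjusted p lay just above the threshold of 0.05. Spp1 passed there in 4 of 18 alternatives, namely DESeq2 size factors, the DESeq2 Wald test, and without replicate 1 or 4 of tumor at 12 months. The spleen mean of these cells was 39.9 CPM at 12 months and 0.473 CPM at 3 months, which the mean over both ages does not show.

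Libraries that share a number and an age are not said to come from the same mouse. Over such libraries the log2 Spp1 levels of tumor regulatory and conventional CD4 T cells had a Pearson r of 0.92 and a Spearman rho of 0.94 (n = 6, exact permutation p = 0.00972 for r, 0.0556 adjusted over 6 relations). For regulatory and CD8 T cells r was 0.78 and rho 0.71 (n = 8, exact permutation p = 0.0257, 0.0556 adjusted), and for CD8 and conventional CD4 T cells r was 0.88 and rho 0.83 (n = 6, exact permutation p = 0.0278, 0.0556 adjusted). None passed the adjustment. Without the 2 libraries farthest from the median r was 0.90, 0.57 and 0.49 for these 3 relations, so the last 2 rested in part on those libraries. The libraries of both ages were pooled, and at most 4 per age are too few for values within an age. With macrophages of the same number r ran from 0.04 to 0.28. The macrophage markers of the tumor T cell libraries at 12 months summed to 6.58 to 53.6 CPM. In each sort replicate 4 had the lowest sum as well as the lowest Spp1. Over these 12-month libraries Apoe was at 3.29 to 40.8 CPM and Tyrobp at 0 to 3.96 CPM. At 3 months replicate 1, the lowest in Spp1, had the highest marker sum of the CD8 libraries (38.1 CPM). Its sum was 46.8 CPM for regulatory T cells (range 25.1 to 50.7 CPM). For the conventional CD4 sort it was the lower of 2 (41.2 against 51.9 CPM). As a percent of the mean tumor macrophage level, replicate 2 at 12 months had Spp1 at 17.3% to 31.7% and markers at 0.17% to 0.366%. Replicate 4 had 0.142% to 0.402% and 0.045% to 0.168%. The part of the markers was not tested. The source of the Spp1 transcripts was not tested.

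**Figure D4:**
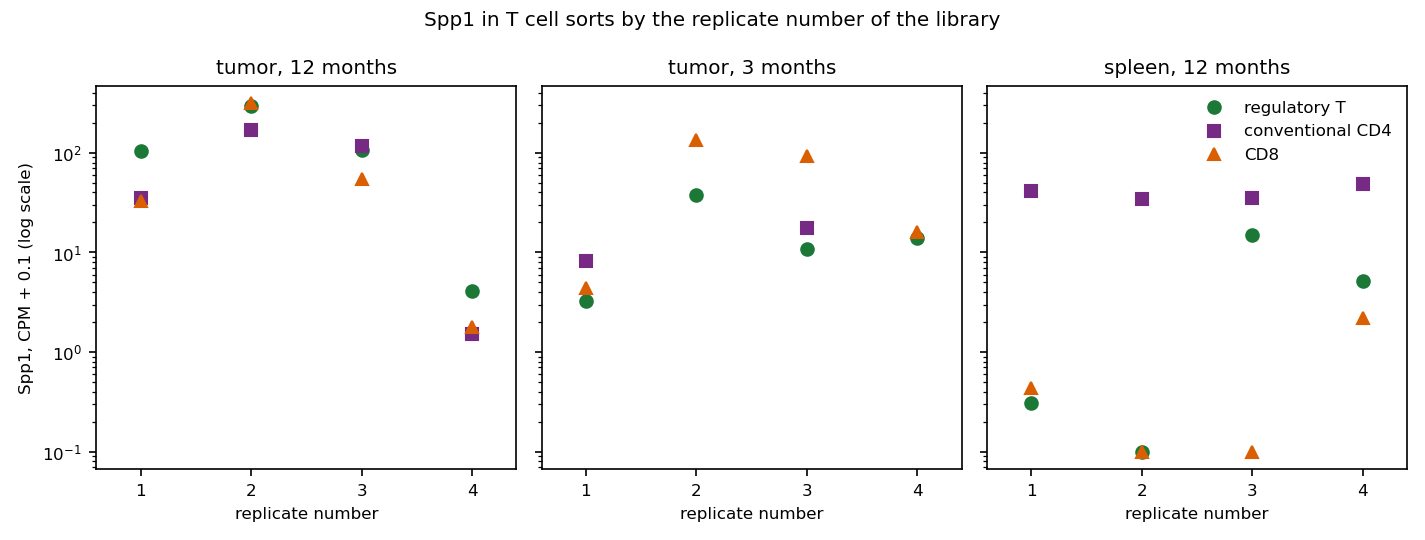
Spp1 as CPM plus 0.1 (log scale) in the 3 T cell sorts against the replicate number of the library, in tumor at 12 months, tumor at 3 months and spleen at 12 months. In tumor at 12 months replicate 2 is the highest (171 to 314 CPM) and replicate 4 the lowest (1.41 to 3.97 CPM) in each sort, and in spleen at 12 months the 4 conventional CD4 libraries lie at 34.6 to 48.5 CPM, above the other sorts.

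Of all age comparisons of the 9 genes, Spp1 in spleen conventional CD4 T cells had the smallest adjusted p. It had 41.6, 34.6, 35 and 48.5 CPM at 12 months and 0, 1.22 and 0.2 CPM at 3 months, where 3.92% of 11726 genes passed and Spp1 was the 1 member of 5 tested to do so. All 4 libraries at 12 months were far above all 3 at 3 months. Spp1 thus rose with age there, by a log2 fold change of 6.23 with an SE of 0.55 (adjusted p = 1.56e-05). It rests on 627 counts at 12 months and 5 counts at 3 months. Spp1 thus entered this comparison through the libraries at 12 months, where it is high, and the call is a description. With all 4 groups in one fit the adjusted p was 0.0581, and without the 2 libraries at 3 months that were rich in ribosomal transcripts (replicates 1 and 4) the log2 fold change was 4.93 (adjusted p = 1.13e-04). That fit leaves 1 library at 3 months, which is assumed to vary like those at 12 months, so it is no check of the result.

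Macrophage markers in those libraries summed to 9.8 to 24.6 CPM at 12 months and 6.71 to 53.3 CPM at 3 months, with overlap, and Foxp3, the regulatory T cell factor, had 51.7 to 79.9 CPM at 12 months, against 21.2 to 44.8 CPM at 3 months, without overlap. Spleen regulatory T cells had 0 to 14.9 CPM of Spp1. The part of regulatory T cell transcripts in the Spp1 result was not tested. Lgals3 in spleen conventional CD4 T cells had 10.9, 6.01, 15.5 and 11.3 CPM at 12 months, against 2.53, 4.27 and 1.8 CPM at 3 months, without overlap (log2 fold change 1.79, SE 0.53, adjusted p = 0.0644). The Wald test of DESeq2 gave Lgals3 an adjusted p of 0.0202. Lgals3 rests on 176 counts at 12 months and 31 counts at 3 months, so it entered mainly through the libraries at 12 months. That call is thus a description.

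The age effect on Lgals3 differed between the tissues of conventional CD4 T cells, with an age by tissue interaction of -1.83 ± 0.42 on the log2 scale (SE, adjusted p = 0.033), where 0.668% of 14661 genes passed. In tumor Lgals3 averaged 135 ± 19.9 CPM at 12 months (n = 4) and 131 ± 8.52 CPM at 3 months (n = 2, SD). Without the 2 spleen libraries rich in ribosomal transcripts the interaction was -1.32 (adjusted p = 0.7), and with the replicate block it was -1.67 (adjusted p = 0.114). The first of these leaves 1 spleen library at 3 months. The call was also lost in 10 of the 13 fits that left out 1 library, with adjusted p-values up to 0.169 (without replicate 4 of spleen at 3 months).

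No member passed for age in the other T cell comparisons. Regulatory T cells had 0% of 11698 genes passing in tumor, 0.0489% of 12261 in spleen and 0% of 13345 in the interaction. Conventional CD4 T cells had 0.0311% of 12882 genes in tumor. CD8 T cells had 0% of 11804 genes in tumor, 1.02% of 11677 in spleen and 0.143% of 13285 in the interaction. The 3 comparisons with 0% held 461, 521 and 486 genes at an unadjusted p under 0.05 by edgeR, where DESeq2 called 7 genes for tumor regulatory T cells, 5 for their interaction and 12 for tumor CD8 T cells, none of them a member. Spp1 of tumor regulatory T cells, with 127 ± 121 CPM at 12 months, against 16.4 ± 15 CPM at 3 months (SD, n = 4 each), did not pass (log2 fold change 2.91, SE 0.99, adjusted p = 0.999).

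The other genes around Trem2 were followed in 4 lists: signaling and cleavage partners of Trem2, genes of lipid handling, other genes of lipid-associated macrophages and disease-associated microglia, and receptors of the secreted members. Of 14 signaling partners 8 were higher and 4 lower in tumor than in spleen macrophages, with a median log2 fold change of 0.64, where 51.7% of all genes tested passed. Of the Ms4a genes, membrane proteins whose human relatives are tied to soluble TREM2, Ms4a6d averaged 1202 ± 148 CPM in tumor macrophages and 95 ± 25.6 CPM in spleen macrophages (SD, n = 8 each), a log2 fold change of 3.90 (adjusted p = 3.10e-13). Ms4a7 averaged 604 ± 94.6 CPM in tumor macrophages and 10.3 ± 5.01 CPM in spleen macrophages, a log2 fold change of 6.11. In dendritic cells 8 of the 14 partners were higher and 1, the kinase Syk, was lower (47.1% of all genes passed), with 101 ± 18.6 CPM in tumor and 303 ± 117 CPM in spleen (adjusted p = 7.64e-05).

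Of 17 lipid handling genes tested 10 were higher and 3 lower in tumor macrophages (median log2 fold change 0.55; 51.7% of all genes passed). Msr1, a scavenger receptor, averaged 689 ± 108 CPM in tumor macrophages and 81.9 ± 19.8 CPM in spleen macrophages, a log2 fold change of 3.30 (adjusted p = 2.79e-12). Abca1, the cholesterol exporter, averaged 196 ± 97.1 CPM in tumor and 21.3 ± 9.8 CPM in spleen, a log2 fold change of 3.35. Npc2, which carries cholesterol inside lysosomes, rose by 1.63 in macrophages and by 2.23 in dendritic cells (adjusted p = 3.14e-08). Lipa, the lysosomal acid lipase, did not pass in macrophages (-0.06, adjusted p = 0.71). In dendritic cells 10 of the 17 were higher and none lower (median 1.22), where 47.1% of all genes passed.

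Of 18 other genes of these macrophages 12 were higher and 2 lower in tumor macrophages (median 1.2), and 15 were higher and none lower in tumor dendritic cells (median 1.61), where 51.7% and 47.1% of all genes passed in these sorts. Lgmn, a lysosomal protease, averaged 3522 ± 485 CPM in tumor macrophages and 241 ± 49.2 CPM in spleen macrophages, a log2 fold change of 4.09 (adjusted p = 1.20e-13). Ctsl, another lysosomal protease, rose by 3.77 in macrophages. Axl, a receptor for dying cells, averaged 576 ± 171 CPM in tumor dendritic cells and 17.1 ± 6.2 CPM in spleen dendritic cells, a log2 fold change of 5.42 (adjusted p = 1.67e-08). Clec7a, a receptor of fungal sugars, rose by 4.73 in dendritic cells (adjusted p = 8.32e-11) and did not pass in macrophages (0.42, adjusted p = 0.114).

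Of 10 receptors for osteopontin, Apoe, Gpnmb or galectin-3, 5 were higher and 3 lower in tumor, in macrophages (median 0.23) and in dendritic cells (median 0.49) alike by count, where 51.7% and 47.1% of all genes passed in these sorts. Sdc4, a cell surface proteoglycan, averaged 873 ± 374 CPM in tumor macrophages and 63.2 ± 22.6 CPM in spleen macrophages, a log2 fold change of 4.02 (adjusted p = 5.62e-09). Itga9, an integrin chain that binds osteopontin, rose by 3.56. Itga4, another such chain, fell in both sorts, to 136 ± 15 CPM in tumor macrophages, against 702 ± 113 CPM in spleen macrophages, and to 191 ± 33.3 CPM in tumor dendritic cells, against 608 ± 116 CPM in spleen dendritic cells. Over all genes tested the median log2 fold change was -0.06 in macrophages and -0.04 in dendritic cells. For age none of the 4 lists had a gene past the threshold in macrophages or in tumor dendritic cells. In spleen dendritic cells 1 gene of the lists passed, Clec7a, which was lower at 12 months (log2 fold change -1.17, SE 0.20, adjusted p = 0.0169), where 0.593% of all genes passed.

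**Figure D5:**
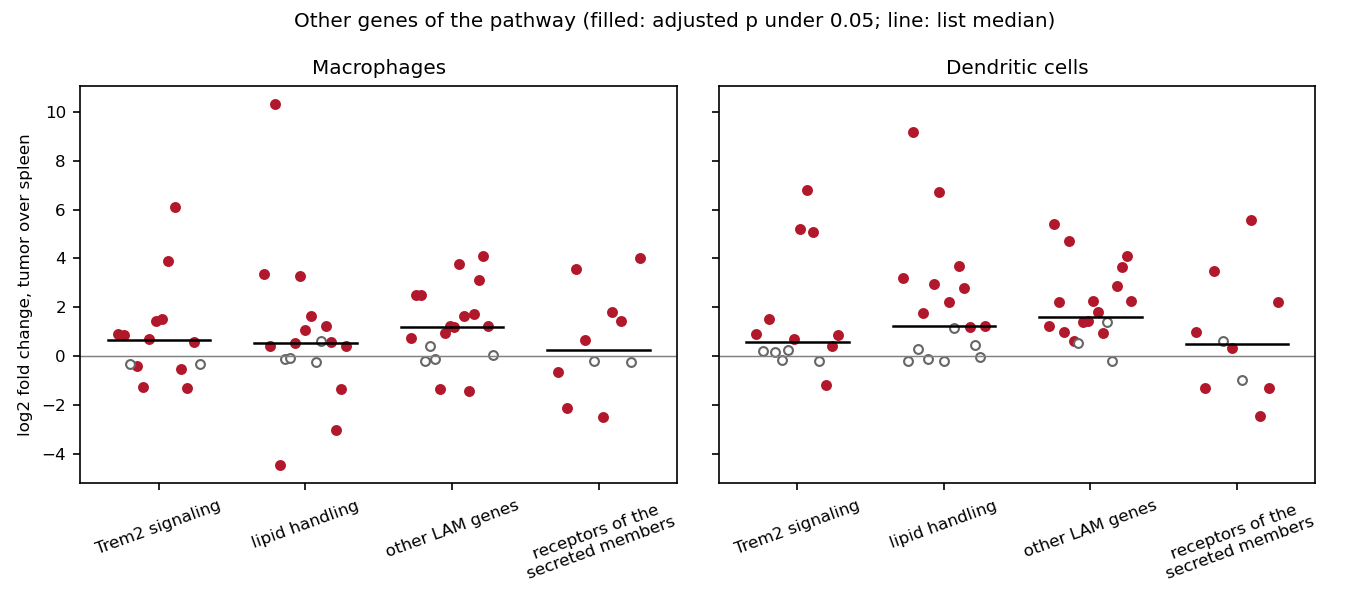
Log2 fold change, tumor over spleen, of each gene of the 4 lists in macrophages (left) and dendritic cells (right); filled points passed an adjusted p of 0.05, open points did not, and lines are list medians. The other genes of lipid-associated macrophages have the highest median in both sorts, at 1.2 and 1.61, and the receptors spread on both sides of 0.

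The genes whose group means ran closest to those of Trem2 over the 20 groups, by Pearson correlation of log2(mean CPM + 1) among 11852 genes, were Cmklr1 (0.99), Ccl2 (0.99), Siglec1 (0.98), Parvb (0.98) and Fcgr1 (0.98). With a pseudocount of 0.1 in place of 1 these 5 correlations ran from 0.91 to 0.95 and the genes ranked 2 to 32, and over the 8 myeloid groups they ranked 1 to 72, so the order depends on these choices. For Apoe they were the pseudogene Nlrp1c-ps (0.99), then Hexa (0.98) and Csf1r (0.98), and for Tyrobp the first was Alox5ap (0.99). Spp1 ran closest to the chemokine Cxcl10 (0.93) and to Pgam1 (0.91), and Gpnmb to the collagen genes Col6a2 (0.93) and Col3a1 (0.91), which fibroblasts make. The genes named for Apoe, Tyrobp, Spp1 and Gpnmb ranked 3 to 334 over the 8 myeloid groups. The points of these correlations are groups that share sorts and libraries, so they are a description and carry no test. Among the members, Trem2 ran closest to Apoe over the 20 groups (0.91) and to Lgals3 over the 8 myeloid groups (0.98), and it had no such likeness to Cd36 over the myeloid groups (-0.16).

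Over the 8 tumor macrophage libraries Trem2 and Apoe had a Pearson r of 0.93 and a Spearman rho of 0.88 (exact permutation p = 0.00208 for r, 0.075 adjusted over 36 pairs; r = 0.76 without the 2 farthest libraries). Gpnmb and Fabp5 had r = 0.84 and rho = 0.81 (exact permutation p = 0.0157, 0.148 adjusted), Fabp5 and Lgals3 r = 0.87 and rho = 0.79 (exact permutation p = 0.00923, 0.148 adjusted), and Apoe and Spp1 r = -0.61 and rho = -0.79 (exact permutation p = 0.101, 0.259 adjusted). None of the 36 pairs passed the adjustment. The libraries of both ages were pooled, and 4 per age are too few for values within an age.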

How the data were processed

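Bulk Smart-seq2 libraries of 5 sorted cell types were analysed from 1 table of raw counts per gene symbol. The authors deposited whole-number counts, not normalized; per the submitters' processing notes STAR 2.5.3, featureCounts and mm10 were used. Those notes name no strand setting and no treatment of multi-mapped reads. The 9 members, the other gene lists and the tests were chosen with earlier results of these data known.

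CPM were computed here from each library's total. Tests used edgeR 4.0.16 in R 4.3.3 (TMM scaling, filterByExpr, robust quasi-likelihood F test, two-sided) on all genes of the table, with Benjamini-Hochberg adjustment over all genes that passed the filter and a threshold of 0.05. Tissue and interaction tests fitted the 4 groups of a sort, age tests the 2 groups compared, and fits with dendritic cells carried sex as a covariate. The steps were tested on simulated counts. Genes named from the lists were up to 4 per list that passed, by smallest adjusted p, and the most abundant one that did not, of which some are printed. Counts of 103 replicate pairs were compared and 0 pairs were identical. Totals of 1652812 to 9115858 counts set the precision.

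Same-numbered libraries were not said to share a mouse. Their deviations correlated in every pair for tumor regulatory T cells across ages (r 0.168 to 0.462, 4 pairs), where the replicate block called 0 members, as the fit without it did. Alternatives were DESeq2 size factors, DESeq2 1.42.0, no low-count filter, the replicate block, libraries left out in turn, all 4 groups in one fit, ages from the age tag, no sex covariate, a neutrophil covariate, and fits without the libraries of conflicting labels or rich in macrophage transcripts. Fits without the libraries rich in fibroblast or ribosomal transcripts were chosen after seeing the data.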

Additional observations from a re-analysis of the deposited data

Results flagged for a closer look

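Within groups of 4 libraries, 66 sets of values of the 9 genes (mean of 10 CPM or more) were screened with Dixon's 95% criterion. Of these 9 held a library far from the other 3. The criterion flags about 1 in 20 sets when values are independent and normally distributed, which CPM need not be. The same screen was not run over all genes, so the count is not a result about these 9.

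Apoe gave 5 of the 9. It stood at 8038 CPM in tumor macrophages at 3 months, replicate 4, below the other 3, and that library is also one of those rich in fibroblast transcripts. Apoe stood at 5783 CPM in tumor dendritic cells at 3 months, replicate 2, the library with the highest macrophage markers of that group. It stood at 5172 CPM in spleen macrophages at 12 months, replicate 4, above the other 3, at 2518 CPM in spleen macrophages at 3 months, replicate 1, below them, and at 50.9 CPM in tumor CD8 T cells at 3 months, replicate 1, above them.

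Spp1 stood at 314 CPM in tumor CD8 T cells at 12 months, replicate 2. Lpl stood at 36.7 CPM in tumor dendritic cells at 3 months, replicate 2. Cd36 stood at 479.7 CPM in spleen macrophages at 12 months, replicate 4, the library in which Apoe was high as well. Lgals3 stood at 49.1 CPM in spleen regulatory T cells at 3 months, replicate 4.

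The age effect on Lgals3 differed between tumor and spleen conventional CD4 T cells, with an interaction of -1.83 on the log2 scale by edgeR (adjusted p = 0.033). The call was lost with the replicate block (adjusted p = 0.114), without the 2 libraries rich in ribosomal transcripts (adjusted p = 0.7) and in 10 of 13 fits that left out 1 library. The causes were not tested.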

How the results depend on the processing

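Over 48 results of single genes and 953 values under other settings, 888 kept their direction and side of the threshold, 36 lost the threshold, 16 passed it newly and 13 changed sign. Of 376 counts of members that passed, 344 stayed within 1.5 times the reported count; the causes of the changes below were not tested.

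In dendritic cells the age comparison in tumor called 1 member without the low-count filter and 1 with DESeq2, against 0. That in spleen, with 1, called 2 without the filter, 0 in one fit of 4 groups, 0 with the age tag and 0 to 3 with a library left out. Between macrophages and dendritic cells of the spleen, the calls on Trem2, Lpl and Tyrobp were lost without the libraries of conflicting labels and with the age tag. Lpl there was -0.18 with the age tag. Spp1 there, at -0.06, was 1.12 with the age tag, 0.10 without the sex covariate, 1.97 without the conflicting labels and -0.55 to 0.71 with a library left out. Lpl in macrophages, tumor against spleen, was 0.0167 with the neutrophil covariate and -0.52 to 0.00932 with a library left out.

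In conventional CD4 T cells the tissue comparison called 1 member without the ribosomal-rich libraries and 1 to 3 with a library left out, against 2. The age comparison in spleen called 2 with DESeq2 and 1 to 2 with a library left out, against 1, and the interaction 0 without the ribosomal-rich libraries and 0 to 1 with a library left out, against 1. Without the filter the age comparison called 1 in spleen regulatory T cells and 1 in tumor CD8 T cells, against 0.

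With the replicate block the tissue comparison in regulatory T cells called 5 members against 3, the age comparison in tumor conventional CD4 T cells 1 against 0 and the interaction there 0 against 1; the counts of members in the other 19 comparisons stayed within 1.5 times. Apart from tumor regulatory T cells across ages, and from replicate 1 of the dendritic cell groups, which shares male sex, same-numbered libraries are not known to share more than a number.

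At these depths values of a few counts, such as Spp1 in spleen CD8 T cells, limit fold changes, and 2 libraries in a group limit the spread.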
